A study of Homo sapiens with 18 samples.

Results

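The promoters of 10 SOX genes were followed in HCT15, DU145 and PC3, out of 20163 protein-coding genes annotated on GRCh37. The genes were taken as a list, namely SOX1, SOX2, SOX5, SOX7, SOX8, SOX9, SOX11, SOX14, SOX17 and SOX21, and a promoter was the window of 1000 bp either side of the 5′ end of the gene. HCT15 is an established human colorectal carcinoma cell line, and DU145 and PC3 are established human prostate carcinoma cell lines. None of them carried a treatment or an introduced change. The DNA of each line was read once by reduced representation bisulfite sequencing (RRBS), which counts methylated and all reads at single CpGs of CpG-rich fragments. The same lines were profiled by MBD-seq, in which fragments bound by a methyl-binding domain are sequenced, with 1 library for each of 5 kits. MethylMagnet and MethylCollector capture with MBD2b, MethylCollector Ultra with MBD2b and MBD3L1 and MethylMiner with MBD2, and MethylCap is the fifth kit. Each line stands for itself as a single culture, and no library had a replicate.

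SOX proteins are transcription factors that bind DNA through an HMG box related to that of SRY and bend it. They are sorted by the similarity of this box into subgroups that steer fate decisions, in neural progenitors (SoxB), developing neurons (SoxC), cartilage (SoxD and SoxE), neural crest and gonad (SoxE) and endothelium and endoderm (SoxF). Their 5′ ends commonly lie in CpG islands, which are mostly unmethylated in normal cells, and hypermethylation of several of them, SOX17 among them, has been described in carcinomas. The 10 windows were rich in CpGs, with a median of 175 CpGs per window against 90 over all protein-coding promoters.

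RRBS read between 631 and 771 CpGs of the 10 windows at least 10 times per library, with a median coverage of 25 reads in HCT15, 58 in DU145 and 29 in PC3. Of the 1796 CpGs in the windows, 563 were read this often in all 3 libraries. The pooled reads of a promoter had a 95% Wilson interval of at most 2.71 percentage points to either side. It covers counting error only, and understates even that, because a read counts again at each CpG that it covers. In a bulk culture, a level between 0 and 100% does not tell methylated cells from methylated alleles. In MBD-seq the libraries held between 10040 and 7344098 fragments. CpGs methylated in a single cell line carried the highest mean depth in the library of that line for 12 of 15 libraries, and the 3 MethylMiner libraries were the exceptions. MBD-seq results are therefore given with and without MethylMiner.

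A property of the RRBS files touched every level below. CpGs inside CCGG, the recognition sequence of the enzyme MspI, or inside TCGA, that of TaqI, read near the middle of the scale even where all around them was unmethylated. In promoters whose other CpGs averaged at most 5%, the other CpGs had means of 1.25% in HCT15, 1.47% in DU145 and 1.55% in PC3. CpGs inside CCGG of the same promoters had means of 51.4%, 52.2% and 52.0%, and those inside TCGA had 54.8%, 55.1% and 55.5%. CCGG occurred in 93.5% and TCGA in 83.4% of all promoter windows, both sequences being their own reverse complement and not overlapping at their CpG. The cause was not tested, and the enzymes are not given in the sources used here. Window means are therefore given for all CpGs and for the CpGs outside these sites, a choice made after seeing the data. All values for bins, upstream, UTR or coding parts of a window are over CpGs outside these sites. The sites lifted the mean of a member by up to 12.9 points where it was low and by little where it was high.

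**Figure D1:**
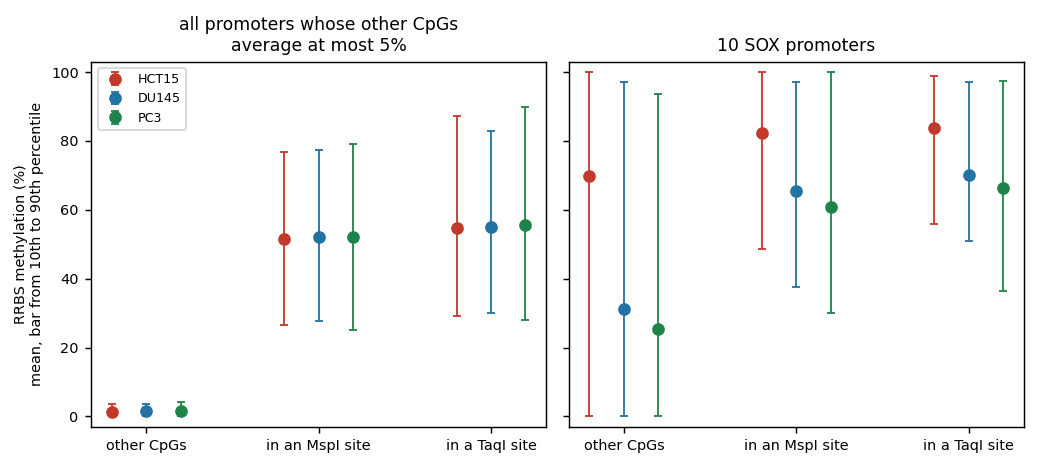
RRBS methylation in percent of CpGs inside an MspI site (CCGG), inside a TaqI site (TCGA) and of other CpGs, for each cell line. Points are means over CpGs, and bars run from the 10th to the 90th percentile. In the left panel (promoters whose other CpGs average at most 5%) the other CpGs sit between 1.25% and 1.55% and the site CpGs between 51.4% and 55.5%, and in the right panel (10 SOX promoters) the site CpGs also lie above the other CpGs in each line.

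The stretches below hold CpGs read at least 10 times in all 3 lines, in capitals. They were read from GRCh37 and are written 5′ to 3′ on the strand of the gene. SOX21 (coding, chr13:95363985-95364130, minus strand), SOX2 (coding, chr3:181430168-181430239, plus strand) and SOX5 (upstream of the 5′ end, chr12:24716178-24716319, minus strand) are shown for the wide range of their promoter means between the lines. HCT15 was the highest line at each of them. SOX1 (coding, chr13:112721996-112722121, plus strand) stands in place of SOX8, as described with the processing of the data. Its single CpGs outside CCGG and TCGA ran from 5.00% to 70.3% in PC3.
SOX21: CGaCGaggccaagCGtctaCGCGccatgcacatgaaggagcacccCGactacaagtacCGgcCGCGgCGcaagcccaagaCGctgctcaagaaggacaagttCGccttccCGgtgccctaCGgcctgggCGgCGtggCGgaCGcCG
SOX2: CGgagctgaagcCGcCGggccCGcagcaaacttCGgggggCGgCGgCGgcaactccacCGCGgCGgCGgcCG
SOX5: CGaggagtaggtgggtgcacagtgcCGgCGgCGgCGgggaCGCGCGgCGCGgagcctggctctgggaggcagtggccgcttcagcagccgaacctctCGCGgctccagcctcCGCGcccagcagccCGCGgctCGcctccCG
SOX1: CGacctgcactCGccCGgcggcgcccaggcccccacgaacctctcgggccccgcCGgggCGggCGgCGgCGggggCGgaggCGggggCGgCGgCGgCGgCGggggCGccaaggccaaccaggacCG

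Over the 16 CpGs of the SOX21 stretch outside CCGG and TCGA, methylation was 97.3% ± 3.88 (SD over CpGs) in HCT15, 9.84% ± 7.44 in DU145 and 0.830% ± 1.31 in PC3. Single CpGs of this stretch spanned 85.7% to 100% in HCT15, 0.0% to 25.9% in DU145 and 0.0% to 3.23% in PC3, without overlap between HCT15 and the prostate lines. The gene was picked for its wide range between the lines, so this separation follows in part from the choice and was not tested. The 11 such CpGs of SOX2 averaged 97.0% ± 4.24 in HCT15, 5.24% ± 3.18 in DU145 and 8.82% ± 8.04 in PC3. The 16 of SOX5 averaged 94.9% ± 10.4 in HCT15, 7.49% ± 8.65 in DU145 and 23.5% ± 24.1 in PC3, where the CpGs ran from 4.00% to 72.0% and overlapped with the lowest of HCT15. The 14 of SOX1 averaged 88.7% ± 18.0, 70.7% ± 12.8 and 41.4% ± 19.7 in HCT15, DU145 and PC3, and here all 3 lines overlapped.

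HCT15 carried the most methylated SOX promoters. With all CpGs, 8 of 10 members had a mean of at least 50% in HCT15, 2 in DU145 and 3 in PC3. Of all protein-coding promoters with at least 5 such CpGs, 26.0% reached this level in HCT15, 18.1% in DU145 and 16.7% in PC3. The counts of members were the same without the CpGs in CCGG and TCGA. SOX14 and SOX9 were the members below 50% in HCT15. SOX1 and SOX11 were above 50% in all 3 lines, and SOX17 in HCT15 and PC3. The median of the members was 91.0% in HCT15, 29.1% in DU145 and 25.7% in PC3, against 16.8%, 16.9% and 16.1% over all promoters. Outside CCGG and TCGA the medians were 90.5%, 22.2% and 15.8% for the members and 2.199%, 2.502% and 2.506% for all promoters.

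**Figure D2:**
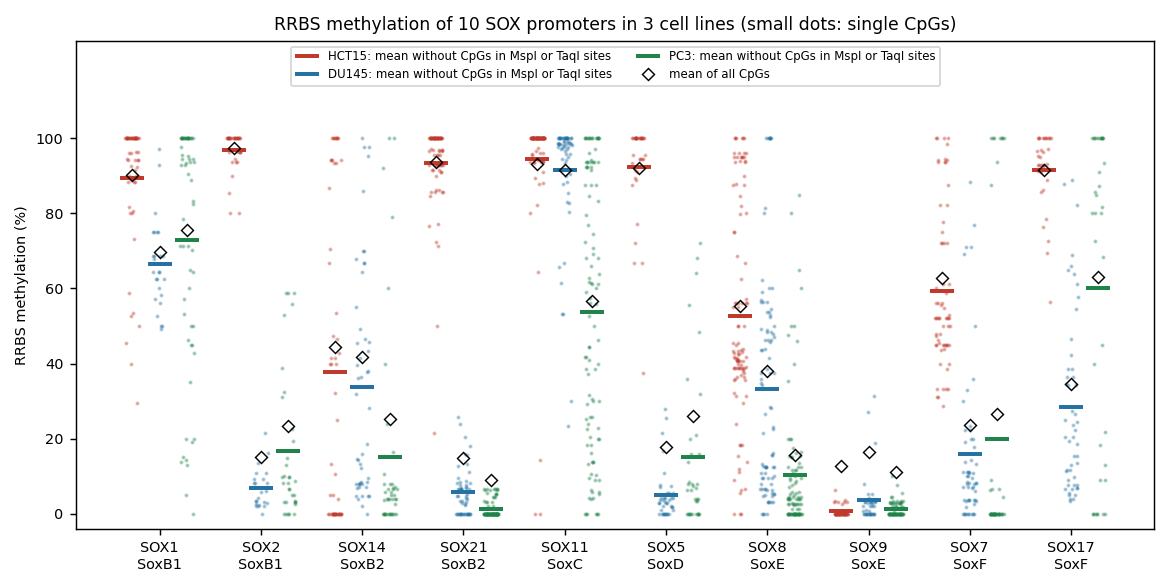
RRBS methylation in percent of the 10 SOX promoters, ordered by subgroup, in HCT15 (red), DU145 (blue) and PC3 (green). Small dots are single CpGs outside MspI and TaqI sites, horizontal marks their means, and diamonds the means of all CpGs; SOX2, SOX21 and SOX5 have HCT15 means of at least 92.1% over prostate line means of at most 26.1%, and SOX9 stays at or below 16.5% in each line.

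Among the SoxB1 genes, whose proteins keep neural and other stem cells undifferentiated, SOX1 was methylated in each line and SOX2 in HCT15 alone. This holds for the CpGs that RRBS read, which at both genes lay almost all downstream of the 5′ end. SOX1 (ENSG00000182968, 5′ end at position 112721463 of chromosome 13) had means of 90.4% ± 16.1 over 70 CpGs in HCT15, 69.8% ± 14.1 over 35 in DU145 and 75.7% ± 30.4 over 72 in PC3. Outside CCGG and TCGA they were 89.3%, 66.4% and 73.0%. Upstream of the 5′ end these rest on 1 CpG in HCT15, at 45.5%, 1 in PC3, at 0.0%, and none in DU145. The level of PC3 depended on the place. In PC3 the 16 CpGs of the first 250 bp outside the sites had 97.8% ± 4.54, while the 21 CpGs from 500 to 750 bp had 53.4% ± 25.5. DU145 stayed at 71.2% ± 12.1 over 16 CpGs from 500 to 750 bp.

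SOX2 (ENSG00000181449, 5′ end at 181429713 of chromosome 3), a core factor of pluripotent cells, overlaps the long noncoding RNA SOX2-OT. Its means were 97.4% ± 5.11 over 41 CpGs in HCT15, 15.2% ± 19.4 over 28 in DU145 and 23.2% ± 24.4 over 41 in PC3. Outside the sites they were 96.9% ± 5.47, 6.77% ± 5.28 and 16.6% ± 19.5, and in HCT15 each of the 34 CpGs was at least 80% methylated. The SOX2 CpGs read at least 10 times lay from 414 to 986 bp after the 5′ end in each line, with none upstream. PC3 climbed with distance. Its CpGs had 4.05% ± 4.16 from 250 to 500 bp, 11.3% ± 11.1 from 500 to 750 bp and 42.6% ± 21.03 from 750 to 1000 bp, and DU145 had 10.8% ± 6.45 in the last of these bins. Of 28 CpGs shared by DU145 and PC3, 7 were called higher in PC3 and 0 in DU145 by the Fisher's exact tests described below.

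The SoxB2 proteins SOX14 and SOX21 act mainly as repressors and promote neuronal differentiation. SOX21 (ENSG00000125285, 5′ end at 95364799 of chromosome 13, overlapping SOX21-AS1) had means of 93.8% ± 11.0 over 98 CpGs in HCT15, 14.9% ± 20.5 over 69 in DU145 and 8.89% ± 20.9 over 113 in PC3. Outside the sites the means were 93.5% ± 11.5, 5.84% ± 6.24 and 1.14% ± 2.24, the widest range of the 10 members at 92.4 points. All 96 CpGs of PC3 outside the sites were at most 20% methylated.

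SOX14 (ENSG00000168875, 5′ end at 137483157 of chromosome 3) had a low centre in each line and a higher downstream flank in HCT15 and DU145. In PC3 the means outside the sites were 12.1% ± 25.6 upstream and 17.6% ± 29.6 downstream of the 5′ end. Its means were 44.5% ± 40.4 over 69 CpGs in HCT15, 41.6% ± 32.2 over 62 in DU145 and 25.2% ± 32.1 over 56 in PC3, and outside the sites 37.7%, 33.8% and 15.1%. In the 250 bp before the 5′ end, HCT15 had 0.294% ± 1.21 over 17 CpGs, DU145 7.68% ± 4.09 over 14 and PC3 2.55% ± 3.26 over 14. From 250 to 500 bp after it, the same 13 CpGs had 82.1% ± 24.5 in HCT15, 58.4% ± 34.5 in DU145 and 27.4% ± 36.8 in PC3. In the Fisher's exact tests described below, 14 of 56 CpGs were called higher in HCT15 than PC3 and 1 lower, and 15 of 56 higher in DU145 than PC3 and 2 lower.

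SOX11 (ENSG00000176887, 5′ end at 5832516 of chromosome 2, overlapping LINC01248), the SoxC member of the list and a factor of immature neurons, was methylated in HCT15 and DU145 and split in PC3. Its means were 93.2% ± 18.3 over 111 CpGs in HCT15, 91.4% ± 15.3 over 87 in DU145 and 56.5% ± 34.2 over 131 in PC3, and outside the sites 94.6%, 91.6% and 53.8%. Outside the sites, PC3 had 23.9% ± 20.6 over 43 CpGs upstream, 29.8% ± 22.8 over 11 CpGs of the 5′ UTR and 83.7% ± 18.6 over 52 coding CpGs. The corresponding means were 85.1%, 97.3% and 98.0% in HCT15 and 83.4%, 99.2% and 94.3% in DU145. A dip to 54.1% ± 48.1 over 7 CpGs in the last 250 bp before the 5′ end was seen in HCT15, and DU145 had 63.2% ± 31.1 over these CpGs.

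SOX5 (ENSG00000134532, 5′ end at 24715478 of chromosome 12) belongs to SoxD, whose proteins lack a transactivation domain and assist SOX9 in cartilage. Its means were 92.1% ± 12.8 over 48 CpGs in HCT15, 17.8% ± 24.9 over 55 in DU145 and 26.1% ± 29.1 over 49 in PC3, and outside the sites 92.3% ± 13.4, 4.92% ± 6.69 and 15.0% ± 21.1. PC3 reached 30.1% ± 27.8 over 10 CpGs in the bin farthest upstream and 0.0% over the 4 CpGs from 500 to 250 bp upstream. The canonical transcript of SOX5 starts at 24102604, far inside the gene, and RRBS read no CpG there, so these values describe the outermost 5′ end of the gene.

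The SoxE genes SOX8 and SOX9, which act in neural crest, testis and cartilage, behaved differently. SOX9 (ENSG00000125398, 5′ end at 70117161 of chromosome 17, overlapping SOX9-AS1) was the only member that was low in each line. It had 12.7% ± 23.7 over 63 CpGs in HCT15, 16.5% ± 23.8 over 54 in DU145 and 11.1% ± 22.4 over 95 in PC3 with all CpGs. Outside CCGG and TCGA it had 0.583% ± 1.40, 3.63% ± 6.82 and 1.23% ± 1.93, so most of the apparent level came from the site CpGs. The highest single CpG outside the sites was 6.25% in HCT15, 31.4% in DU145 and 10.0% in PC3.

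SOX8 (ENSG00000005513, 5′ end at 1031770 of chromosome 16, overlapping LMF1 and CEROX1) had means of 55.4% ± 28.3 over 124 CpGs in HCT15, 38.1% ± 30.2 over 107 in DU145 and 15.6% ± 22.3 over 113 in PC3, and outside the sites 52.7%, 33.2% and 10.3%. In HCT15 the level outside the sites was lowest around the 5′ end. The 21 CpGs from 750 to 500 bp upstream had 79.0% ± 26.3, the 24 CpGs just before the 5′ end 28.4% ± 18.7, and the 20 coding CpGs outside the sites 40.8% ± 2.42. DU145 was above HCT15 in the coding part with 50.4% ± 11.5 and below it upstream with 16.5% ± 15.1 against 56.9% ± 34.2. PC3 had 15.4% ± 15.2 in the coding part and 5.00% ± 9.13 upstream. From 500 to 750 bp after the 5′ end, 10 CpGs had 82.0% ± 19.9 in HCT15, 86.0% ± 25.1 in DU145 and 42.0% ± 28.0 in PC3.

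The SoxF proteins SOX7 and SOX17 act in endothelium, and SOX17 also specifies endoderm. SOX7 (ENSG00000171056, 5′ end at 10588021 of chromosome 8, overlapping PINX1) had means of 62.8% ± 21.02 over 82 CpGs in HCT15, 23.7% ± 26.4 over 72 in DU145 and 26.6% ± 41.0 over 56 in PC3, and outside the sites 59.3%, 15.9% and 19.9%. In HCT15 it fell along the window from 96.6% ± 5.08 over 6 CpGs in the bin farthest upstream through 79.1% ± 10.5 over 12 to 48.4% ± 6.09 over 18 in the last 250 bp before the 5′ end. PC3 was divided in 2, with 96.9% ± 5.23 over the same 6 distal CpGs and 0.0% over 15 CpGs just upstream of the 5′ end. No CpG of PC3 outside the sites lay between 20% and 80%. DU145 had 71.2% ± 12.5 at the 6 distal CpGs and 3.93% ± 4.06 over 15 next to the 5′ end.

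SOX17 (ENSG00000164736, 5′ end at 55370495 of chromosome 8) had means of 91.6% ± 11.3 over 42 CpGs in HCT15, 34.5% ± 26.1 over 62 in DU145 and 63.1% ± 39.3 over 45 in PC3, and outside the sites 91.6%, 28.5% and 60.03%. The prostate lines had opposite profiles. Over coding CpGs, PC3 had 94.5% ± 9.85 (12 CpGs) and DU145 9.57% ± 5.74 (19 CpGs), while upstream of the 5′ end PC3 had 14.7% ± 26.6 (11 CpGs) and DU145 36.3% ± 22.7 (16 CpGs). HCT15 had 92.9% ± 9.77 over coding CpGs and 86.9% ± 15.4 upstream.

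**Figure D3:**
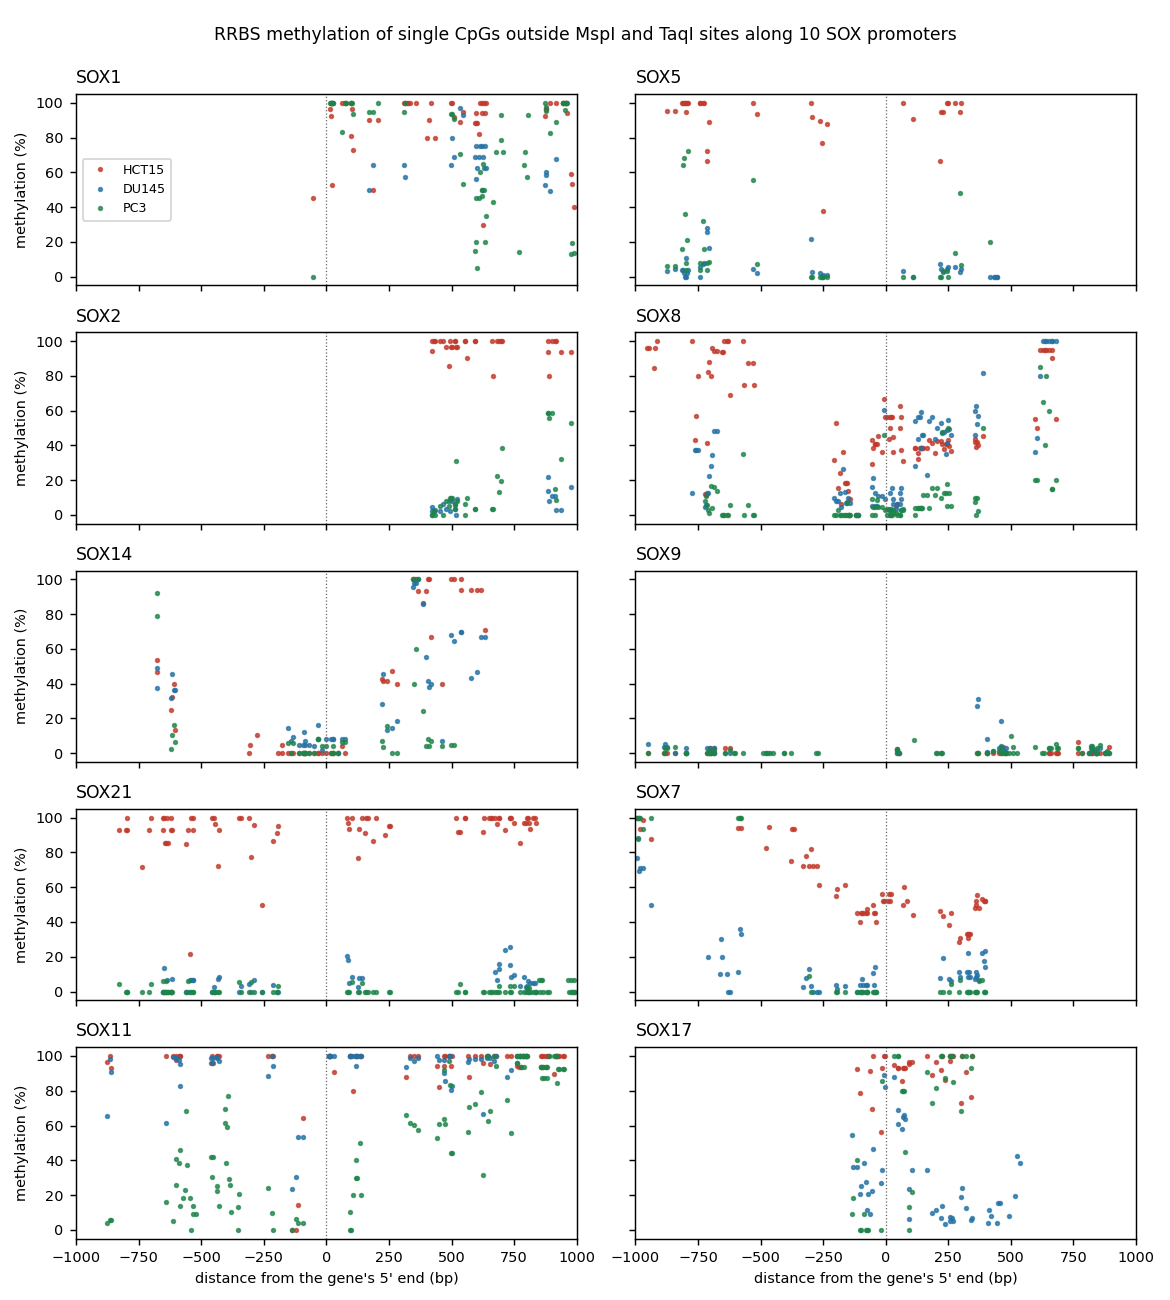
RRBS methylation in percent of single CpGs outside MspI and TaqI sites against the distance from the 5′ end of the gene in bp, for each of the 10 SOX promoters, with HCT15 in red, DU145 in blue and PC3 in green. In SOX7 the CpGs of HCT15 slope down towards the 5′ end, in SOX17 those of PC3 lie high and those of DU145 low in the coding part, and in SOX9 the lines lie together near 0.

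The lines were next compared pair by pair over CpGs read at least 10 times in both libraries. HCT15 was at least 25 points above DU145 at 5 of 10 members and above PC3 at 6 of 10, and neither prostate line was this far above HCT15 at any member. Over all protein-coding promoters, 12.3% were this far above DU145 and 12.5% above PC3, and 1.56% and 1.61% lay in the opposite direction. The median difference of the members was 29.6 points against DU145 and 31.7 against PC3, and over all promoters it was -0.150 and 0.0245. With 1 library per line these differences have no replicate check.

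Against DU145, HCT15 was higher by 82.1 points at SOX2, 78.3 at SOX21, 73.8 at SOX5, 54.1 at SOX17 and 37.3 at SOX7. SOX1 with 21.8 points, SOX8 with 11.6, SOX14 with 6.85, SOX11 with 0.374 and SOX9 with -1.78 were under 25 points. Against PC3, HCT15 was higher by 83.9 points at SOX21, 74.2 at SOX2, 65.8 at SOX5, 36.9 at SOX8, 33.1 at SOX7 and 30.4 at SOX11. SOX14 with 18.7 points, SOX17 with 16.4, SOX1 with 12.8 and SOX9 with -0.456 were below. The members nearest to the 25 points were thus SOX1 below it against DU145 and SOX11 above it against PC3.

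Between the prostate lines, 1 member differed by at least 25 points in each direction. SOX11 was 39.7 points higher in DU145 and SOX17 27.4 points higher in PC3. With 2000 bp either side the difference at SOX17 was -8.19 points (DU145 minus PC3), and no member was then at least 25 points higher in PC3. Over all promoters, 4.40% were this far above in DU145 and 3.25% in PC3. SOX8 was 21.03 points and SOX14 14.4 points higher in DU145, while SOX2 had a difference of -10.3 points and SOX5 of -8.20, both with PC3 above. The median over the members was 0.318 points and over all promoters 0.136.

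Single CpGs were tested by two-sided Fisher's exact tests of methylated and unmethylated reads, adjusted by Benjamini-Hochberg over all CpGs of the genome read in both libraries, and called at an adjusted p under 0.05 and a difference of at least 25 points. Such a test compares 2 libraries, not conditions, and CpGs that share reads are not independent. HCT15 was called higher than DU145 at 265 of 593 member CpGs and lower at 7. Of the CpGs in all protein-coding promoter windows, 12.2% were called higher and 2.23% lower, and of all CpGs tested 7.18% and 6.95%. HCT15 was called higher than PC3 at 347 of 677 member CpGs and lower at 3, beside 12.3% and 2.25% in promoter windows and 11.3% and 3.80% of all CpGs. DU145 was called higher than PC3 at 113 of 574 and lower at 49, beside 5.47% and 4.27% in promoter windows and 12.1% and 3.38% of all CpGs.

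The calls were spread unevenly over the members. Against DU145, HCT15 was called higher at 28 of 28 CpGs of SOX2 (smallest adjusted p 5.17e-48 in Fisher's exact tests), 63 of 69 of SOX21, 44 of 48 of SOX5, 30 of 42 of SOX17 and 46 of 64 of SOX7. At SOX11, 2 of 84 CpGs were called in each direction, and at SOX9 0 of 54 were called higher in HCT15 and 2 in DU145. Against PC3, the largest shares were 92 of 97 at SOX21, 37 of 41 at SOX2, 41 of 48 at SOX5 and 72 of 113 at SOX8, and SOX9 had no call in 63. Between the prostate lines, 51 of 80 CpGs of SOX11 and 34 of 102 of SOX8 were called higher in DU145 with none in the opposite direction. SOX17 had 21 of 45 called higher in PC3 and 2 in DU145, and SOX1 was mixed with 6 higher in DU145 and 7 in PC3 of 35.

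MBD-seq was then read over the same windows as a second measurement of methylation, from the number of captured fragments that overlapped a window. In the 4 kits other than MethylMiner, fragments were called more frequent in HCT15 than in PC3 at 4 of 9 members by the test described below. No member was called in the opposite direction, and the shares over all promoters tested were 10.5% and 3.84%. The 4 members were SOX21, SOX5, SOX7 and SOX14. None of them was called with DESeq2 as the tool or without MethylCollector Ultra. Counts were small, and each kit was applied once to a line, so the p-values below measure the spread among kits of captures from the same DNA. Fragments were tested with edgeR's quasi-likelihood test, with the kit as a block, over 4875 promoters with at least 20 fragments in the 12 libraries. In this test 9 of 10 members were included and SOX9 was not.

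SOX21 had 0, 12, 14 and 28 fragments in HCT15 with MethylMagnet, MethylCollector, MethylCollector Ultra and MethylCap. It had 0, 0, 0 and 4 in DU145 and 1, 0, 0 and 0 in PC3. HCT15 was above PC3 in 3 of 4 kits, by 3.78 ± 0.940 (SE) on the log2 scale (edgeR adjusted p = 0.00174). SOX5 had 0, 8, 7 and 20 fragments in HCT15, 0, 0, 0 and 1 in DU145 and 1, 0, 0 and 0 in PC3. The difference from PC3 was 3.14 ± 0.969 on the log2 scale (edgeR adjusted p = 0.0139), again with MethylMagnet as the exception.

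SOX7 had 6, 22, 13 and 41 fragments in HCT15, 0, 0, 0 and 6 in DU145 and 3, 0, 3 and 2 in PC3. HCT15 was above PC3 in 4 of 4 kits, by 1.98 ± 0.643 on the log2 scale (edgeR adjusted p = 0.0211). SOX14 had 2, 6, 9 and 18 fragments in HCT15, 0, 0, 0 and 3 in DU145 and 0, 1, 1 and 0 in PC3. The difference from PC3 was 2.52 ± 0.850 (edgeR adjusted p = 0.0275), at a member whose RRBS difference of 18.7 points was under 25. Fragment numbers also depend on the size of each library. The fit scaled each library by its fragments over the tested promoters and a TMM factor, not by its total. The outcome with library totals is given in the last section.

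Of all promoters tested, 10.5% were called higher in HCT15 than PC3 and 3.84% lower. The median log2 difference between HCT15 and PC3 was 1.21 over the 9 members and 0.154 over all promoters. With DESeq2, 8 of the 9 members had an adjusted p, SOX5 having none, and none was called, with log2 differences of 3.73 at SOX21, 2.09 at SOX7 and 2.63 at SOX14. Without MethylCollector Ultra, SOX21, SOX5, SOX7 and SOX14 each lost the call at log2 differences of 3.06, 2.64, 2.26 and 2.68. With MethylMiner added, only SOX7 was still called. Over the megabase around each gene, MethylMiner fragments were 1.65 times the genome mean in HCT15 and 0.540 in PC3 at SOX7, 0.754 and 0.438 at SOX5, 1.03 and 0.716 at SOX14 and 0.965 and 0.725 at SOX21. The part of such regional depth in the differences was not tested.

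Against DU145, no member was called higher or lower in HCT15 by edgeR, or by DESeq2, which gave 6 of the 9 an adjusted p. In edgeR, 3 members, SOX17, SOX7 and SOX5, had an unadjusted p under 0.05. Of the 4875 promoters tested, 1042 had such a p in either direction. SOX17 had 3, 9, 15 and 24 fragments in HCT15, 0, 0, 0 and 2 in DU145 and 2, 1, 7 and 2 in PC3, and its log2 difference between HCT15 and DU145 was 2.21 ± 0.935 (edgeR adjusted p = 0.137). Over all promoters, 2.54% were called higher in HCT15 and 0.246% in DU145, and the median log2 difference was 0.733, against 1.35 over the members. Between DU145 and PC3 no member was called by either tool, DESeq2 again giving 6 an adjusted p. None had an unadjusted p under 0.05 in edgeR, against 840 of the 4875 promoters. Of all promoters, 0.472% were called higher in DU145 and 1.37% in PC3. The DU145 libraries of MethylMagnet, MethylCollector and MethylCollector Ultra had 10040, 29613 and 30336 fragments, and 1, 2 and 4 of the 10 members had a fragment in them. With 500 bp either side, SOX5 was called higher in HCT15 than DU145 by 4.87 on the log2 scale (edgeR adjusted p = 0.0482).

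SOX9 had 2 fragments in HCT15 with MethylCollector Ultra, 1 in DU145 with MethylCap, 1 in PC3 with MethylMagnet and none in the other 9 libraries of these kits. With MethylCap in HCT15, the largest of the 12 libraries at 3886402 fragments, 0 fragments were seen where a uniform spread over the genome would give 2.76, with an exact Poisson 95% upper limit of 3.69 fragments. The other 9 members had 18 to 41 fragments in that library. SOX1 and SOX11, the members methylated in each line, had 19 and 26 fragments in HCT15, 8 and 9 in DU145 and 6 and 10 in PC3 with MethylCap, and these were the highest numbers of any member in DU145 and, for SOX11, in PC3.

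MethylMiner gave another picture. It placed 15 fragments over SOX9 in HCT15, 6 in DU145 and 6 in PC3. Over SOX21 it had 9, 4 and 9, although RRBS put PC3 near 0, and over SOX5 it had 4 in HCT15, 9 in DU145 and 1 in PC3. Across the 10 promoters, Spearman's rho between fragments and RRBS means outside the sites was, for HCT15, DU145 and PC3 in turn, -0.220, -0.307 and -0.318 with MethylMiner and 0.164, 0.807 and 0.667 with MethylCap. In the same order it was -0.111, 0.174 and 0.604 with MethylMagnet and 0.183, 0.545 and 0.415 with MethylCollector. With MethylCollector Ultra it was 0.517, 0.562 and 0.673. The promoters of a library share its depth and differ in CpG content, so these values are descriptive.

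**Figure D4:**
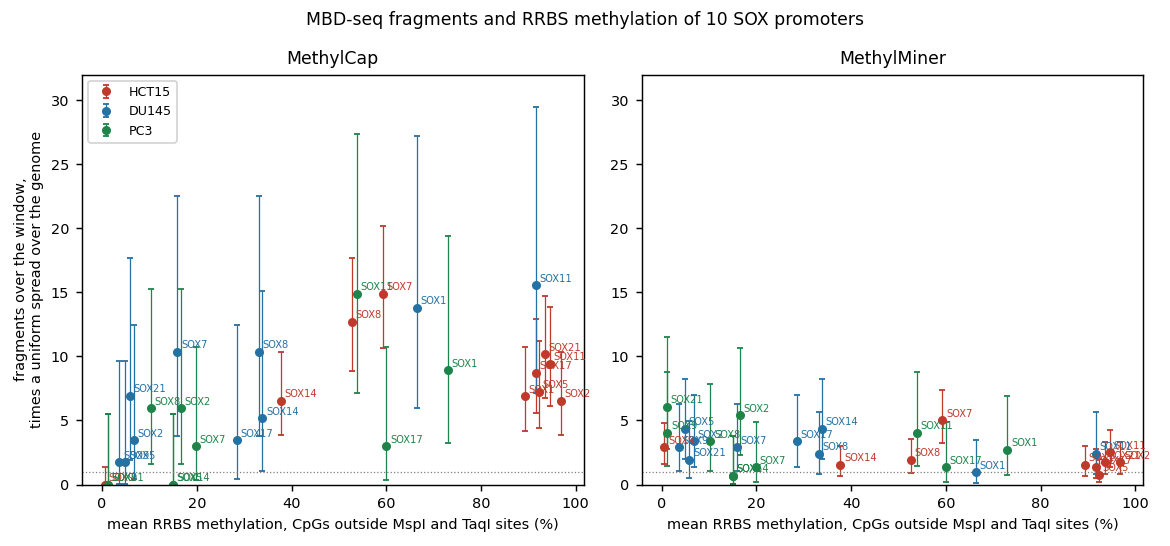
MBD-seq fragments over each SOX promoter, as a multiple of the number that a uniform spread over the genome would give, against mean RRBS methylation in percent of CpGs outside MspI and TaqI sites, for MethylCap (left) and MethylMiner (right). Each point is 1 promoter in 1 cell line, bars are 95% exact Poisson intervals, which cover counting error only, and the dotted line marks 1. With MethylCap, SOX9 in HCT15 lies at 0 and the other promoters of that line between 6.53 and 14.9, while MethylMiner shows no such separation.

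At single CpGs of the SOX windows, the mean depth over CpGs at least 80% methylated was compared with that over CpGs at most 20% methylated. With MethylCap the depths were 2.76 and 0.0421 in HCT15, 0.789 and 0.142 in DU145 and 0.451 and 0.0520 in PC3, so that methylated CpGs were covered 65.7, 5.55 and 8.66 times as deeply. The lower depths rest on few fragments, with 4 of 95, 40 of 288 and 20 of 442 CpGs covered at all. On the log2 scale the ratio averaged 3.87 ± 1.90 (SD, n = 3 lines) for MethylCap, 3.34 ± 1.40 for MethylCollector and 1.87 ± 1.65 for MethylCollector Ultra. The DU145 library of MethylCollector Ultra was 1.08 times as deep over methylated CpGs, and 0.783 times outside CCGG and TCGA. The log2 ratio averaged 4.72 ± 1.11 (SD, n = 2 lines) for MethylMagnet, whose DU145 library had no depth over the 288 CpGs of low methylation. The HCT15 library of MethylMagnet covered 2 of 95 such CpGs. MethylMiner had -0.144 ± 0.241 (SD, n = 3 lines), and its HCT15 library was deeper over the methylation-poor CpGs, with 1.21 against 0.960. No test was made, since the members were a chosen list.

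Depth and RRBS were also compared inside the windows, upstream against downstream of the 5′ end. Of 26 pairs of member and line with RRBS values in both parts, 20 had the higher depth in the part with the higher methylation and 6 did not. Most of the 26 had the higher depth downstream, and so did most of those with the higher methylation upstream. The count of 20 is therefore not a measure of agreement alone. SOX1 in HCT15 and in PC3 entered it with 1 upstream CpG each. For SOX17 in PC3, where RRBS had 14.7% upstream and 79.97% downstream of the 5′ end, the summed mean depth of the 4 kits was 0.165 upstream and 2.04 downstream. For SOX14 in HCT15, with 8.88% and 63.6%, the depths were 0.457 and 5.30. For SOX11 in PC3, with 23.9% and 74.3%, they were 0.777 and 3.82. SOX7 in PC3 had the opposite order in both measurements, with 34.2% upstream and 1.19% downstream and depths of 1.11 and 0.104. SOX8 in HCT15 had 56.9% upstream and 48.6% downstream but depths of 5.56 and 8.38, and SOX17 in DU145 had 36.3% and 24.9% but depths of 0.032 and 0.285. The number of CpGs differs between the upstream and downstream parts too, and its part in these depths was not tested.

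The other SOX genes and the partner factors of SOX proteins, both fixed as lists, were measured in the same way. Of 9 other SOX genes, 8 could be compared between HCT15 and DU145, and 1 was at least 25 points higher in HCT15, while 3 of 7 were so against PC3 and none was lower. Over all protein-coding promoters, 12.3% were this far higher in HCT15 than DU145 and 12.5% than PC3, so 1 of 8 is near the general share. SOX18, the remaining SoxF gene, had 79.7% ± 20.1 in HCT15, 23.1% ± 25.6 in DU145 and 32.8% ± 29.2 in PC3. Outside the sites its means were 79.2%, 16.7% and 27.4%. SOX15 and SOX30 were higher in HCT15 than in PC3 by 26.2 and 39.8 points, and SOX15 was also 25.6 points higher in DU145 than in PC3. The median difference of the list was 0.00486 points between HCT15 and DU145 and 1.17 between HCT15 and PC3. Of 8 partner factors, 5 could be compared in each pair and 1, POU3F2, a neural POU factor, exceeded 25 points in each of them. The shares over all promoters were 12.3% for HCT15 above DU145, 12.5% for HCT15 above PC3 and 4.40% for DU145 above PC3. Over the CpGs shared by each pair, POU3F2 had 64.3% in HCT15 and 35.9% in DU145 (29 CpGs), 65.7% in HCT15 and 12.3% in PC3 (28 CpGs) and 39.5% in DU145 and 14.0% in PC3 (38 CpGs).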

How the data were processed

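DNA of 3 established cell lines were profiled by RRBS (1 library each) and MBD-seq (5 kits, 1 library per kit and line). The RRBS files deposited by the authors give, per CpG with both strands summed, 2 read counts, methylated and total, and no CpG under a coverage of 6. The MBD-seq files deposited by the authors hold signal, namely unscaled coverage by uniquely mapped fragments after duplicates were collapsed. The submitters' processing notes name Bowtie and hg19, and the RRBS aligner and enzymes are not given in the sources used here. Groups came from the labels. The members, lists and tests were chosen with earlier results of these data known.

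Promoters were windows of 1000 bp either side of gene 5′ ends (GENCODE 44 on GRCh37). CpGs needed a coverage of 10, and promoters 5 CpGs. The PC3 file held no CpG of chromosome 22, 18 CpGs of chromosome X and none of chromosome 21 past position 42485481. SOX10 and SOX3 had no value in PC3. Rows not on a CG of the reference or repeated were left out, 654 to 1932 per file. RRBS coverage summed over CpGs was 72638326 to 130667913 per library, a read counting once at each CpG that it covers. Fragments per window were counted from rises in depth and tested with edgeR 4.0.16 (quasi-likelihood, TMM scaling, kit as covariate, Benjamini-Hochberg), with DESeq2 1.42.0 as an alternative. Standard errors were taken as the log2 fold change over the square root of F. The kits are captures of the same DNA, so the block on kit follows the design and no animals or donors pair the samples. CpGs were tested with Fisher's exact test. The scripts, in Python 3.11.15 and R 4.3.3, were tested on simulated data.

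Named genes were the 10 members, and genes of 2 further lists (SOX3, SOX4, SOX6, SOX10, SOX12, SOX13, SOX15, SOX18 and SOX30; POU5F1, POU3F2, PAX6, PAX3, MITF, RUNX2, CTNNB1 and GATA4) that passed 25 points in any pair. Sequences were to be those of the 4 members outside chromosome 8 with the widest range, and were printed for the 4 matched in the RefSeq promoter table, SOX21, SOX2, SOX5 and SOX1, so that SOX1 stands in place of SOX8. Alternatives were other coverages, windows, thresholds, pooled reads, the canonical 5′ end, CpGs shared by all lines, other scalings and filters and each kit or line left out.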

Additional observations from a re-analysis of the deposited data

Results flagged for a closer look

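Numbers of fragments over a window, as a multiple of the number that a uniform spread over the genome would give, were searched in each cell line for a kit far from the other 4. There were 30 groups of 5 kits. The criterion nominally marks about 1 in 20 groups by chance, and its rate for such low counts was not tested. SOX8 in HCT15 stood apart with MethylMagnet, at 310.1 times from 13 fragments. In DU145, SOX1 and SOX2 stood apart with MethylCollector Ultra, at 94.1 and 47.0 times from 2 and 1 fragments. SOX21 and SOX7 in DU145 were highest with MethylCap, at 6.91 and 10.4 times from 4 and 6 fragments. In PC3, SOX14 stood apart with MethylCollector at 16.7 times and SOX5 with MethylMagnet at 5.93 times, from 1 fragment each. All but SOX8 rested on 6 fragments or fewer, and the parts of library size and kit in these values were not tested.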

How the results depend on the processing

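The counts of members at 50% or above were within 1.5 times their main value under each alternative run, among them leaving out CpGs in CCGG and TCGA, an alternative added after seeing the data. No result changed sign past its threshold. Levels of single members moved past the margin set for them in 117 of 237 cases, 23 of these with 500 bp and 19 with 2000 bp. With 2000 bp either side, HCT15 minus PC3 was 21.4 points at SOX11, which fell below 25. It was 27.6 points at SOX14 and 25.4 at SOX17, which rose above 25. With a threshold of 40 points, 3 members were above PC3 in HCT15 and 0 differed between DU145 and PC3 in either direction, and with 15 points 2 members were above PC3 in DU145. With 500 bp either side 2 members, SOX17 and SOX1, were higher in PC3 than DU145, and with 2000 bp 0 were, SOX17 then differing by -8.19 points. Of single CpGs, a coverage of at least 20 left 188 called higher in HCT15 than PC3. With 500 bp, 155 CpGs were called higher in HCT15 than DU145, 182 in HCT15 than PC3, 67 in DU145 than PC3, 25 in PC3 than DU145 and 1 in PC3 than HCT15, fewer CpGs being tested. With 2000 bp, 31 were called higher in DU145 than HCT15 and 12 in PC3 than HCT15. At 40 points, 1, 1 and 67 were called higher in DU145 than HCT15, in PC3 than HCT15 and in DU145 than PC3. For MBD-seq, members called higher in HCT15 than PC3 numbered 1 with all 5 kits, 0 with DESeq2 and 0 to 3 with each kit left out, of which MethylCollector, MethylCollector Ultra and MethylCap left 2, 0 and 2. Without the kit as a replicate block 3 were called, SOX14 losing its call. With 500 bp, 1 member, SOX5, was called higher in HCT15 than DU145. Library totals in place of TMM gave 6 members higher in HCT15 than PC3 and moved the median log2 difference of all promoters between HCT15 and PC3 from 0.15 to 0.60, against 1.91 over the members. Counts over all promoters moved by more than 1.5 times in 48 of 66 cases. Promoters called higher in HCT15 than PC3 numbered 512 with edgeR and 144 with DESeq2, and 89 without MethylCollector Ultra. The MethylMagnet depth ratio (log2) became 6.30 with classes of 10% and 90%, from 1 line, and that of MethylMiner 0.57 with 500 bp. Leaving out each line moved the ratio of MethylCollector Ultra between 1.11 and 2.75. The low fragment numbers limit MBD-seq. The causes of these shifts were not tested.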
